A study of Mus musculus with 9 samples.

Results

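The matrix metalloproteinases (MMPs) and their inhibitors, the TIMPs, were examined as a set of 9 genes chosen by symbol: Mmp8, Mmp9, Mmp10, Mmp12, Mmp13, Mmp14, Mmp19, Timp1 and Timp2. They are 9 of the 15343 genes in the table, and all 9 passed the filter on low values (10 or more normalized counts in 3 or more libraries), as did 13895 genes in all. The libraries came from intraperitoneal primary macrophages, titled WT (wild type), of a mouse strain written CF7B1/6. The DHA + LPS group (3 libraries) received docosahexaenoic acid (DHA, an omega-3 fatty acid) at 100 µM for 1 h and then lipopolysaccharide (LPS, a bacterial cell wall component sensed by TLR4) at 100 ng/ml for 6 h. The cpdA + LPS group (3 libraries) received cpdA, a small molecule described as an agonist of the fatty acid receptor Gpr120, at 10 µM for 1 h before the same LPS. The LPS group (3 libraries) received the same LPS, with no pretreatment named in its labels, and no library without LPS was analysed here. The labels do not say whether replicates came from separate animals or cultures, so p-values measure only the spread between these libraries, which may be technical. Values of a group are given in the order of replicates 1, 2 and 3, and a library is called by its pretreatment and number, such as DHA 1.

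MMPs are zinc-dependent proteases that are made as inactive precursors and cut collagens, elastin, basement membrane and also cytokines and chemokines. Most are secreted, some are anchored in the membrane, and TIMPs bind the active site and block it. Macrophages are a main source of the elastase Mmp12 and of the gelatinase Mmp9, and many MMP genes respond to inflammatory signals through AP-1, the Fos and Jun family of transcription factors.

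In the RefSeq gene order of GRCm38.p6, Mmp13, Mmp12, Mmp10 and Mmp8 lie in 1 cluster of 10 MMP genes on chromosome 9, with 0 other protein-coding genes between them, and 6 of the 10 were in the table. Mmp19 lies on chromosome 10, Timp2 on 11, Mmp14 on 14, Mmp9 on 2 and Timp1 on X. Promoter sequences of 7 of the 9 genes matched in RefSeq, and Mmp9 and Mmp19 had no entry. The 150 bases before the start site are shown for the 3 genes whose levels were lower in every DHA and cpdA library than in every LPS library (Mmp10, Mmp13 and Timp1) and for Mmp12, a neighbour with a level that barely varied. They are from GRCm38.p6, read 5′ to 3′, at chr9:7502192-7502341 (plus strand) for Mmp10, chr9:7272364-7272513 (plus) for Mmp13, chrX:20870016-20870165 (plus) for Timp1 and chr9:7344247-7344396 (plus) for the upstream start site of Mmp12. Capitals mark the AP-1 motif TGANTCA. The Timp1 window does not hold it, and the other start site of Mmp12, not shown, does.
Mmp10: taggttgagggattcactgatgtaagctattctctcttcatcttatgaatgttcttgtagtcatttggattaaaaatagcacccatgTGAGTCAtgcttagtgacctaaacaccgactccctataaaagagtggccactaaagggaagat
Mmp13: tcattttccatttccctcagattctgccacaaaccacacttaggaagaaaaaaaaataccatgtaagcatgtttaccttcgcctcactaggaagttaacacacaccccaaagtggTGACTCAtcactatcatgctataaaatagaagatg
Timp1: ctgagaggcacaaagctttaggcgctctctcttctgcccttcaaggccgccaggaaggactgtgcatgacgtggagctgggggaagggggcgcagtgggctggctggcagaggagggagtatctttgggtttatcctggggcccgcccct
Mmp12: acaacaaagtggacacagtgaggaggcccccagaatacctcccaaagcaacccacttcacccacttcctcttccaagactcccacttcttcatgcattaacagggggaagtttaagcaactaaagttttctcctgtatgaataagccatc

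In the 250 bases before each start site, TGANTCA, which reads the same on both strands, matched at positions -63 to -57 of Mmp10 and -35 to -29 of Mmp13, counted back from the start site. Another match lay at -44 to -38 of the other start site of Mmp12, so 3 of 8 start sites of the family held it, against 6.75% of 32851 promoters. TATAAA on the sense strand matched in Mmp10 and Mmp13 (2 of 8 start sites) and in 7.59% of all promoters. On both strands, TTGCNNAA, a C/EBP pattern, matched in Mmp10, Mmp8 and the upstream start site of Mmp12 and in 9.56% of promoters. An interferon response pattern, a pair of GAAA words with 2 free bases between them, matched in Mmp13 and in 2.98% of promoters. A loose NF-kB pattern, GGG and CC with 5 free bases between them, matched in Timp1, at overlapping places, and at the upstream start site of Mmp12, and in 45.8% of promoters. Neither Timp2 nor Mmp14 held any of these letters in the window.

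Read depth recovered from the table ranged from 13797079 (DHA 1) to 37572822 (cpdA 2) reads per library. Macrophage markers were high in sum, though not each of them: over 9 genes they ranged from 560899 to 582852 normalized counts in DHA + LPS, 385815 to 586530 in cpdA + LPS and 323033 to 581474 in LPS, the lowest being cpdA 3 and LPS 3. Lyz2 carried those low sums, at 269048 and 210386 in them against 447053 to 459826 in the others. Without Lyz2 the other 8 genes summed to 112346 to 134699 in DHA + LPS, 116767 to 136588 in cpdA + LPS and 112648 to 122887 in LPS, and Csf1r was highest in cpdA 3 (21816) and Mertk in LPS 3 (10615). Timd4 (25.4 to 202.8) and Gata6 (183.2 to 405.6) were low in every library. All 10 genes of a fibroblast and mesothelium list were in the table as well, summing to between 31391 and 33264.5 in DHA + LPS, 32683.5 and 37285.4 in cpdA + LPS and 29003.5 and 49638.1 in LPS, with LPS 3 highest. Of 11 neutrophil markers 5 were found, summing to 5240 to 6565 in DHA + LPS, 3566 to 6292 in cpdA + LPS and 7335 to 8536 in LPS. Csf3r alone carried most of that sum, from 3423 in cpdA 3 to 8305 in LPS 3. S100a8, another gene of the neutrophil list, lay between 303 and 381 in DHA + LPS, between 44.4 and 378 in cpdA + LPS and between 71.6 and 255 in LPS. Markers of endothelium summed to at most 680.4, of mast cells, basophils and eosinophils to 436, of lymphocytes to 366 and of dendritic cells to 174, with Ltf, Tie1 and Siglech at 0 in some libraries. In such bulk libraries, fewer cells of a type and less RNA per cell cannot be told apart. The libraries cpdA 3 and LPS 3 stood apart from the others of their groups, so the changes of the 9 genes against LPS are given with both and without them. That exclusion was chosen with results of these data known.

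Levels of different genes were compared per length, as normalized counts per kilobase of exon (GENCODE M21 exons on GRCm38). Mmp12, macrophage elastase, was the highest of the family in every library, from 18770 to 22050 per kilobase. Mmp14, the membrane-anchored protease that activates pro-MMP2, followed with a median of 7240 (3399 to 8572). Timp2 had a median of 3319 and Timp1 of 2913, and the ranges of Mmp14, Timp2 and Timp1 overlapped. Mmp13 (median 954), Mmp9 (772) and Mmp19 (345) came next, with ranges that overlapped from each to the next. Mmp8 (median 33.1) and Mmp10 (13.1) were the lowest, did not reach the range of Mmp19, and overlapped each other. Mmp12 made up 67.8, 72.6 and 72.3% of the summed per-kilobase level of the 7 MMPs in the DHA + LPS libraries, 67.3, 67.1 and 82.4% in the cpdA + LPS libraries, and 63.5, 64.7 and 70.4% in the LPS libraries. Its share was highest in cpdA 3, where Mmp13, Mmp9 and Mmp14 were all low.

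**Figure D1:**
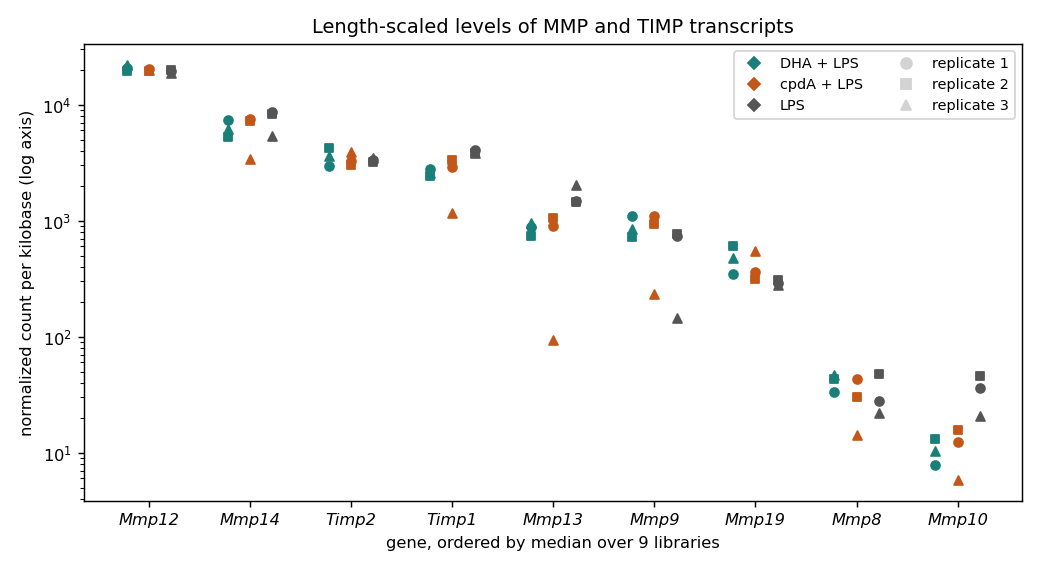
Normalized count per kilobase of exon (log axis) of the 9 genes in each library, ordered by the median over 9 libraries; colours are groups and marker shapes replicates. Mmp12 lies between 18770 and 22050 in all libraries, while the single cpdA 3 triangles of Mmp13 (93.8) and Timp1 (1169) lie below the other libraries of these genes.

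DHA + LPS against LPS asks what the fatty acid altered in stimulated macrophages, and cpdA + LPS against LPS asks the same of the Gpr120 agonist; both share the LPS libraries. Mmp10, Mmp13 and Timp1 were lower, and Mmp19 higher, in all 3 DHA libraries and in all 3 cpdA libraries than in all 3 LPS libraries. The ranges of Mmp8, Mmp9, Mmp12, Mmp14 and Timp2 overlapped in both comparisons. Mmp10 was known to be among the largest falls with DHA in a fit without cpdA 3 and LPS 3 when the genes were chosen, so the members' values in all comparisons are a description and carry no test. Non-overlap downwards was seen in 3 of 9 genes for DHA, against 15.0% of all genes, and in 3 of 9 for cpdA, against 12.2%. Non-overlap upwards was seen in 1 of 9 for DHA, against 13.0%, and in 1 of 9 for cpdA, against 10.7%. Nothing is read from these shares, since the genes were chosen with the contrasts in view.

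Mmp10, a stromelysin that cuts proteoglycans and activates other MMPs, had 13.4, 22.6 and 17.8 normalized counts in the DHA + LPS libraries, 21.2, 27.1 and 10.0 in the cpdA + LPS libraries, against 62.0, 79.5 and 35.8 in the LPS libraries. The highest pretreated library, cpdA 2, lay below the lowest control, LPS 3. The means were 17.9 ± 4.6 in DHA + LPS, 19.4 ± 8.69 in cpdA + LPS and 59.1 ± 22.0 in LPS (SD, n = 3 each), or 0.303 and 0.329 of the LPS mean. On the log2(value + 1) scale the change was -1.62 (SE 0.42) with DHA and -1.59 (SE 0.42) with cpdA. With cpdA 3 and LPS 3 left out these were -1.94 (SE 0.30) and -1.51 (SE 0.33).

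The depth behind Mmp10 was small. It rested on 6, 20 and 16 reads in the DHA + LPS libraries and 20, 33 and 11 reads in the cpdA + LPS libraries, against 57, 69 and 35 reads in the LPS libraries. The exact Poisson 95% interval of DHA 1 ran from 4.92 to 29.2 normalized counts, that of cpdA 2 from 18.7 to 38.1 and that of LPS 3 from 24.9 to 49.8, counting error only. The interval of LPS 3 thus overlapped those of DHA 1 and cpdA 2. It also overlapped those of DHA 2 (up to 34.9), DHA 3 (up to 28.9) and cpdA 1 (up to 32.7), but not that of cpdA 3 (up to 17.9). The intervals of LPS 1 (47.0 to 80.3) and LPS 2 (61.9 to 100.6) lay above those of all 6 pretreated libraries.

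Mmp13, a collagenase that cuts fibrillar collagen, had 2376, 1977 and 2550 normalized counts in the DHA + LPS libraries, 2413, 2835 and 251 in the cpdA + LPS libraries, against 3927, 3860 and 5395 in the LPS libraries. The low value is that of cpdA 3, and the high one that of LPS 3. Group means were 2301 ± 294 in DHA + LPS, 1833 ± 1387 in cpdA + LPS and 4394 ± 868 in LPS (SD, n = 3 each). The log2 change was -0.92 (SE 0.77) with DHA and -1.86 (SE 0.77) with cpdA. In the other 7 libraries it was -0.77 (SE 0.11) with DHA and -0.57 (SE 0.12) with cpdA, and without cpdA 3 alone the cpdA value was -0.73. Fibroblasts also make Mmp13. The fibroblast and mesothelium list summed to 37285.4 in cpdA 3 and 49638.1 in LPS 3, but its genes did not move together in cpdA 3. There Pdgfra (8132) was the highest of all libraries, and Dcn (6328) and Col3a1 (6058) were exceeded only in LPS 3. Col1a1 (6027), Pdgfrb (386.6), Lum (29.0) and Krt19 (6.3) were the lowest of all libraries, and the other genes of the list lay in between. The part of the list in the Mmp13 values was not tested.

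Mmp8, the collagenase stored in neutrophil granules, had 80.3, 104.9 and 112.4 normalized counts in the DHA + LPS libraries, 104.7, 73.0 and 34.4 in the cpdA + LPS libraries, against 67.4, 115.2 and 53.2 in the LPS libraries. The ranges of all 3 groups overlapped. Its log2 change was 0.39 (SE 0.41) with DHA and -0.21 (SE 0.41) with cpdA. The cpdA value was 0.23 without cpdA 3, and without cpdA 3 and LPS 3 the changes were 0.15 (SE 0.25) and -0.01 (SE 0.28).

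Mmp9, the gelatinase that macrophages and neutrophils release, had 3478, 2280 and 2688 normalized counts in the DHA + LPS libraries, 3476, 2954 and 737 in the cpdA + LPS libraries, against 2341, 2450 and 462 in the LPS libraries. The low libraries were cpdA 3 and LPS 3 in their groups, and all groups overlapped. The log2 change with DHA was 1.00 (SE 0.72), and 0.21 (SE 0.15) without cpdA 3 and LPS 3. With cpdA it was 0.50 (SE 0.72), 0.42 (SE 0.17) without both libraries, and -0.29 without LPS 3 alone. The neutrophil markers did not all move together in these libraries. S100a8 and Camp were lowest in them, at 44.4 and 8.1 in cpdA 3 and 71.6 and 3.1 in LPS 3. In cpdA 3, Csf3r (3423) and the sum of the list (3566) were also the lowest of all libraries, while Cxcr2 (86.0) and Ltf (4.5) were not. In LPS 3, by contrast, Csf3r (8305) and Cxcr2 (153.5) were highest of all libraries, as was the sum of the list. The part of these markers in the Mmp8 and Mmp9 values was not tested.

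Mmp12 had 81771, 78109 and 87837 normalized counts in the DHA + LPS libraries, 81460, 77792 and 79780 in the cpdA + LPS libraries, against 77044, 78955 and 74762 in the LPS libraries. The 9 values overlapped and lay within a narrow band, also in cpdA 3 and LPS 3. Its log2 change was 0.10 (SE 0.14) with DHA and 0.05 (SE 0.14) with cpdA, and 0.08 (SE 0.10) and 0.03 (SE 0.11) without cpdA 3 and LPS 3. Mmp12 and its cluster neighbour Mmp13 thus differed in pattern, the level of Mmp13 in cpdA 3 lying at -3.95 and that of Mmp12 at 0.03 relative to the mean of LPS 1 and LPS 2 on the log2 scale.

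**Figure D2:**
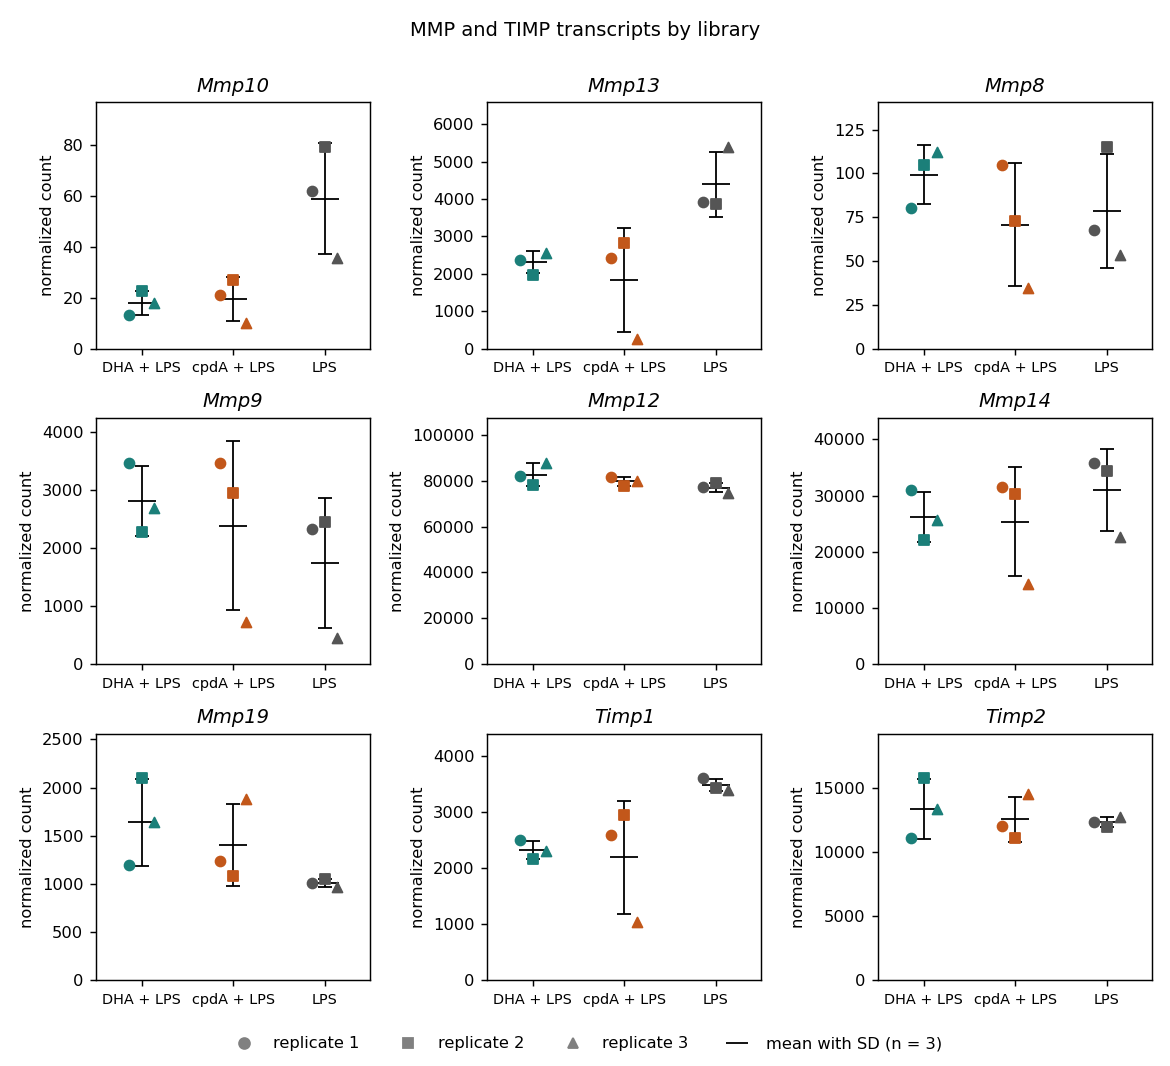
Normalized count (vertical axes, each from 0) of the 9 genes in the DHA + LPS, cpdA + LPS and LPS libraries; marker shapes are replicates, and bars the mean with SD (n = 3). Mmp10, Mmp13 and Timp1 lie lower in all 6 pretreated libraries than in the 3 LPS libraries, Mmp19 lies higher, and cpdA 3 and LPS 3 are the low triangles of Mmp9.

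Mmp14 had 30961, 22143 and 25622 normalized counts in the DHA + LPS libraries, 31582, 30292 and 14221 in the cpdA + LPS libraries, against 35866, 34384 and 22588 in the LPS libraries. LPS 3 and cpdA 3 were low in their groups, and the groups overlapped. All 3 DHA libraries lay below LPS 1 and LPS 2, and DHA 2 lay below LPS 3 as well. The log2 change was -0.22 (SE 0.32) with DHA and -0.34 (SE 0.32) with cpdA, and without cpdA 3 and LPS 3 it was -0.43 (SE 0.13) and -0.18 (SE 0.14). Leaving out cpdA 3 alone gave 0.03 for cpdA.

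Mmp19, a secreted protease of basement membrane proteins, had 1193, 2095 and 1637 normalized counts in the DHA + LPS libraries, 1237, 1082 and 1882 in the cpdA + LPS libraries, against 1005, 1053 and 965 in the LPS libraries. All pretreated libraries were above all LPS libraries, although cpdA 2 exceeded LPS 2 by little. The log2 change was 0.67 (SE 0.23) with DHA and 0.43 (SE 0.23) with cpdA. In the 7 libraries other than cpdA 3 and LPS 3 the cpdA value was 0.17 (SE 0.23), and the DHA value 0.64 (SE 0.21).

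Among the inhibitors, Timp1, an inducible secreted inhibitor of most MMPs, had 2490, 2164 and 2305 normalized counts in the DHA + LPS libraries, 2587, 2935 and 1039 in the cpdA + LPS libraries, against 3594, 3431 and 3387 in the LPS libraries. The LPS libraries lay close together, LPS 3 included, and above every pretreated library. The log2 change was -0.58 (SE 0.33) with DHA and -0.80 (SE 0.33) with cpdA. When cpdA 3 and LPS 3 were left out it was -0.60 (SE 0.09) and -0.35 (SE 0.10).

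Timp2, which binds Mmp14 at the cell surface, had 11059, 15732 and 13312 normalized counts in the DHA + LPS libraries, 12016, 11097 and 14489 in the cpdA + LPS libraries, against 12311, 11923 and 12748 in the LPS libraries. The groups overlapped, with DHA 1 the lowest and DHA 2 the highest library. The log2 change was 0.10 (SE 0.16) with DHA and 0.02 (SE 0.16) with cpdA, and 0.13 (SE 0.13) and -0.07 (SE 0.14) without cpdA 3 and LPS 3.

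Protease and inhibitor were also set against each other per kilobase, in 3 ratios chosen after the values were seen and given with no test. Mmp9 over Timp1 was 0.391, 0.295 and 0.326 in the DHA + LPS libraries, 0.376, 0.282 and 0.199 in the cpdA + LPS libraries, against 0.182, 0.200 and 0.0381 in the LPS libraries. All DHA ratios lay above all LPS ratios, whereas cpdA 3 lay just below LPS 2. Mmp14 over Timp2 was 2.48, 1.25 and 1.71 in the DHA + LPS libraries, 2.33, 2.42 and 0.870 in the cpdA + LPS libraries, against 2.58, 2.56 and 1.57 in the LPS libraries, with overlap between groups. Mmp13 over Timp1 was 0.317, 0.303 and 0.368 in the DHA + LPS libraries, 0.310, 0.321 and 0.0803 in the cpdA + LPS libraries, against 0.363, 0.374 and 0.529 in the LPS libraries. It was lower in every cpdA library than in every LPS library, whereas DHA 3 lay just above LPS 1.

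**Figure D3:**
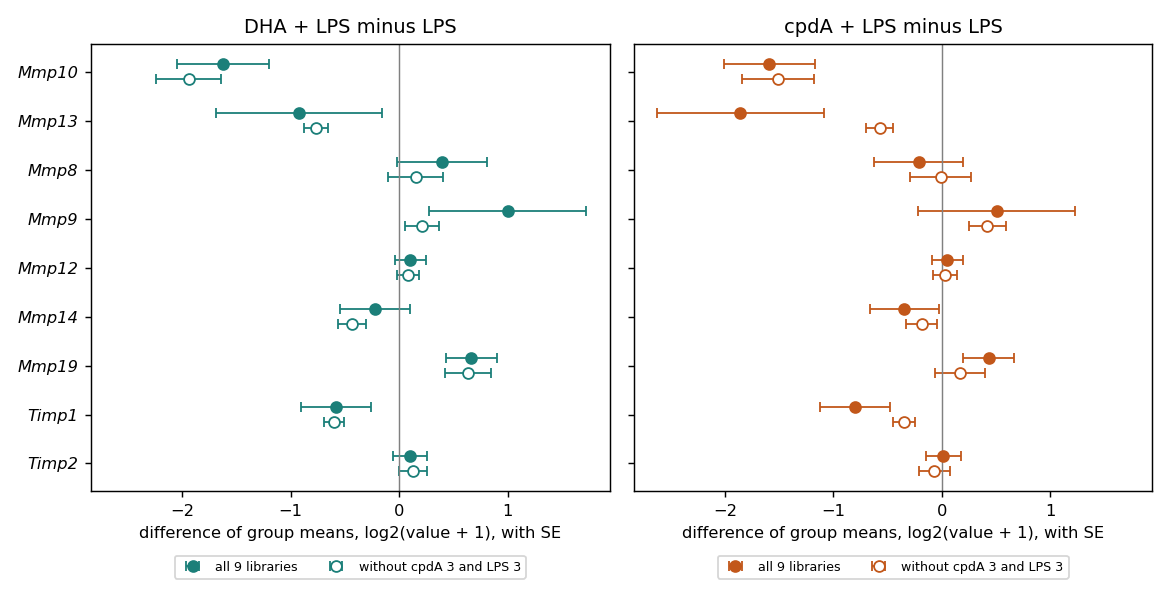
Difference of group means on the log2(value + 1) scale (horizontal axis) with its limma standard error for each gene, DHA + LPS minus LPS on the left and cpdA + LPS minus LPS on the right; filled points use all 9 libraries and open points leave out cpdA 3 and LPS 3. Mmp10 stays between -1.94 and -1.51 in both, whereas Mmp13 with cpdA moves to -0.57 from -1.86 when the 2 libraries are left out.

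Over all 9 libraries, limma with Benjamini-Hochberg adjustment over 13895 genes called 0 of the 9 genes for DHA, against 0.00720% of all genes, with 2 of 9 at an unadjusted p under 0.05, as were 14.2% of all genes. It called 0 of 9 for cpdA, against 0.00720%, with 3 of 9 at an unadjusted p under 0.05, as were 14.6% of all genes. The same test with the replicate number as a block called 0 of 9 for cpdA, and 0% of all genes. On recovered reads, edgeR called 0 of 9 for DHA (0.0216% of all genes) and 0 of 9 for cpdA (0.00720%), and DESeq2 called 1 of 9 lower for DHA, Mmp10 (1.09% of all genes). For cpdA, DESeq2 called 0 of the 8 members it gave an adjusted p (3.26% of all genes), and Mmp10, at -1.60 (SE 0.46), was given none and so could not be called. Without cpdA 3 and LPS 3, limma called Mmp10, Mmp13 and Timp1 lower with DHA (3 of 9, against 4.04% of all genes) and Mmp10 and Mmp13 lower with cpdA (2 of 9, against 0.885%). Without cpdA 3 alone it called the same 3 genes lower for DHA, beside 373 of 13895 genes in either direction, 219 of them lower. The DHA changes themselves stayed at -1.62 (Mmp10), -0.92 (Mmp13) and -0.58 (Timp1), since cpdA 3 enters that comparison only through the shared spread. The SE of Mmp13 became 0.15. The members' median log2 change was 0.10 for DHA and -0.21 for cpdA, against -0.00067 and -0.0043 over all genes. Without cpdA 3 and LPS 3 it was 0.08 and -0.07, against -0.0077 and -0.0016. These counts describe contrasts that were known when the genes were chosen. The fall of Mmp10 with DHA was known from the fit without cpdA 3 and LPS 3 itself. Nothing is therefore read from the members called or from the shares beside them.

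In cpdA + LPS against DHA + LPS, limma, edgeR and DESeq2 each called 0 of 9 members and 0% of all genes, with 0 members and 142 genes at an unadjusted p under 0.05 in limma. The ranges of all 9 genes overlapped between the compounds, while 2.61% of all genes lay wholly lower and 3.04% wholly higher in cpdA + LPS. Mmp10 differed by 0.03 (SE 0.42, log2), Mmp13 by -0.93 (SE 0.77) and Timp1 by -0.22 (SE 0.33). Without cpdA 3 and LPS 3, Mmp10 differed by 0.43 (SE 0.30), and the differences of Mmp13, Mmp9, Mmp14 and Timp1 were 0.19, 0.21, 0.25 and 0.25. The doses of the compounds differ, at 10 µM for cpdA and 100 µM for DHA.

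Genes with a profile most like a member were named by the mean absolute difference of centred log2(value + 1) values over the 9 libraries. For Mmp10 these were Acat2 (0.301), Amica1 (0.310), Gm13012 (0.328), Gjb2 (0.354) and Serpina3h (0.356), against a median of 0.745 over all 13894 other genes. Amica1 averaged 6.73 normalized counts in DHA + LPS and 7.63 in cpdA + LPS, under the filter of 10, against 17.9 in LPS. Gm13012 (group means 16.8, 23.5 and 42.3) and Gjb2 (26.5, 23.3 and 44.9) were low as well, so these likenesses rest on few reads. Both Gm13012 and Serpina3h belong to families of close copies between which reads may be split, and their counts are uncertain. Nearest to Mmp13 were Cd69 (0.0769), Hdc (0.134), Slamf1 (0.145), Scimp (0.170) and Vcan (0.172), against a median of 0.779. Nearest to Timp1 were Tmem2 (0.0411), Milr1 (0.0710), Nt5c3 (0.0746), Sbds (0.0768) and Ifi27l2a (0.0790), against a median of 0.411. For Mmp19 the closest were Scamp5 (0.0418), Antxr2 (0.0587), Vav2 (0.0743), Tnfrsf21 (0.0786) and Parp1 (0.0801), against a median of 0.390. Mmp9 was most like Cxcl1 (0.112) and Cxcl2 (0.138), followed by Lphn2 (0.147), Has1 (0.174) and Lad1 (0.192), against a median of 0.786. Relative to the mean of LPS 1 and LPS 2, Mmp9 departed most in LPS 3 (-2.37) and cpdA 3 (-1.70, log2), and these libraries weigh on its likeness. Distances without them were not computed for any member.

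The other MMPs and TIMPs formed a list of 18 genes, of which 12 were in the table and 10 passed the filter. With 9 libraries none of the 10 passed over all genes in any comparison (limma, smallest adjusted p = 0.305 for DHA and 0.353 for cpdA). Of all 13895 genes, 1 passed for DHA and 1 for cpdA. Mmp3, another stromelysin of the cluster, had 176, 136 and 144 normalized counts in the DHA + LPS libraries, 160, 237 and 493 in the cpdA + LPS libraries, against 266, 240 and 678 in the LPS libraries. It was highest in LPS 3 and cpdA 3, where Mmp10 was low for its group. Without cpdA 3 and LPS 3, an exclusion chosen with results known, 943 of 13895 genes were called for DHA. Mmp3 fell in that fit (log2 change -0.74, SE 0.18, limma adjusted p = 0.0327). With all 9 libraries the change was -1.21 (SE 0.46; limma adjusted p = 0.305). The median change of the 10 genes was 0.02 with DHA and -0.07 with cpdA, beside -0.00067 and -0.0043 over all genes. Timp3, the inhibitor bound to the matrix, had 1309, 1523 and 1578 in the DHA + LPS libraries, 1378, 1446 and 944 in the cpdA + LPS libraries, against 1271, 1177 and 1102 in the LPS libraries.

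**Figure D4:**
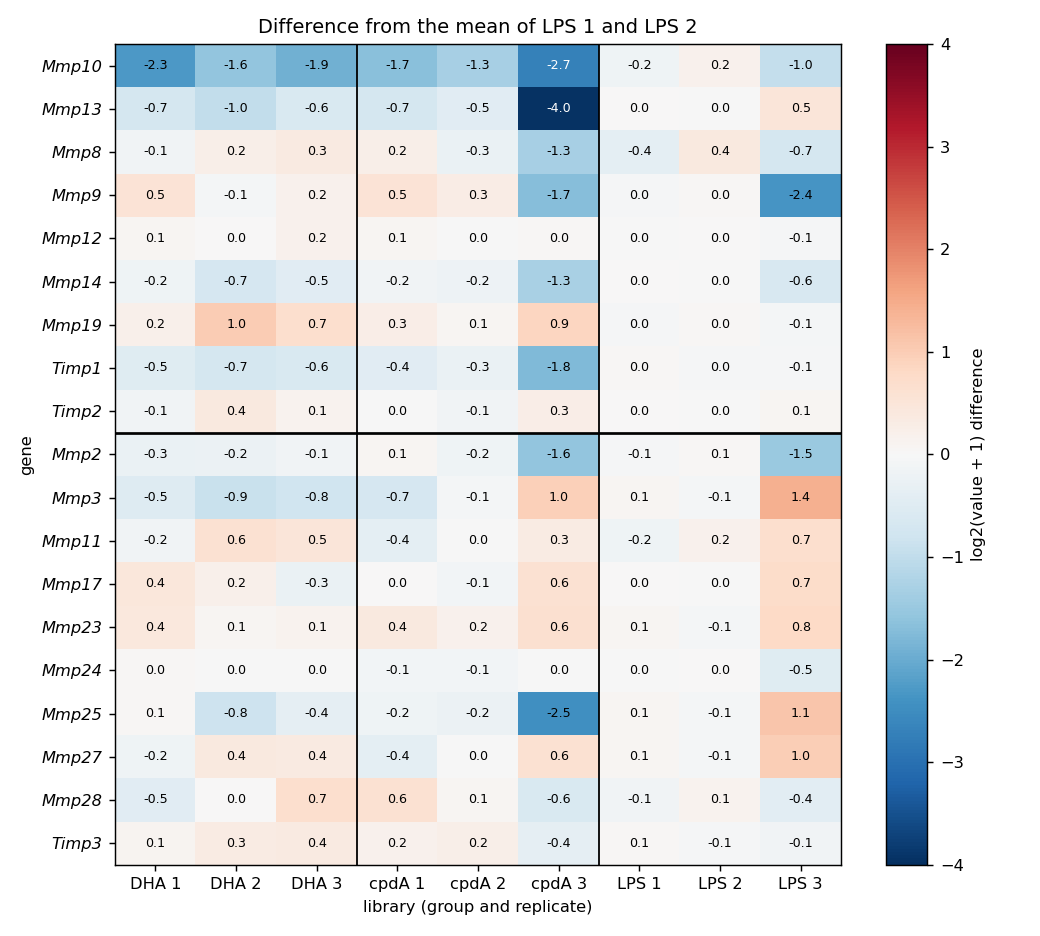
Difference of each library (columns) from the mean of LPS 1 and LPS 2 on the log2(value + 1) scale (colour and printed value) for the 9 genes, above the line, and the 10 other kept MMPs and TIMPs, below it. Mmp10 is negative in all 6 pretreated libraries and in LPS 3, and cpdA 3 and LPS 3 hold most of the deep colours, such as -3.95 for Mmp13 in cpdA 3 and -2.37 for Mmp9 in LPS 3.

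Of 17 genes that activate or restrain MMPs, 0 passed over all genes with 9 libraries for DHA (limma, smallest adjusted p = 0.201) or cpdA (0.221), with a median of -0.18 and -0.13. Of all 13895 genes, 1 passed for DHA and 1 for cpdA in that fit. Without cpdA 3 and LPS 3, 943 passed for DHA and 222 for cpdA. Serpinb2, an inhibitor of plasminogen activators, had 4120, 3990 and 4667 normalized counts in the DHA + LPS libraries, 3997, 5509 and 3987 in the cpdA + LPS libraries, against 6863, 6143 and 7755 in the LPS libraries. All pretreated libraries lay below all LPS libraries. With all 9 libraries the log2 change of Serpinb2 with DHA was -0.70 (SE 0.15, limma adjusted p = 0.201). That of A2m, a broad protease trap, was 2.01 (SE 1.26, limma adjusted p = 0.484). In the 7 libraries other than cpdA 3 and LPS 3, an exclusion chosen with results known, Serpinb2 fell (-0.61, SE 0.13, limma adjusted p = 0.0181). A2m rose there (0.78, SE 0.20, limma adjusted p = 0.0409). A2m stood at 11.8 in cpdA 3 and 9.2 in LPS 3, against 114 to 292 in the other libraries.

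Of a list of ADAM and ADAMTS proteases, relatives that shed or cut surface and matrix proteins, and the iRhom regulators of Adam17, 15 were kept and 0 passed with 9 libraries (limma, smallest adjusted p = 0.301 for DHA and 0.347 for cpdA). In the 7 libraries other than cpdA 3 and LPS 3, Adam12 alone rose with DHA (0.49, SE 0.12, limma adjusted p = 0.0279). Its change with all 9 libraries was 0.79 (SE 0.36, limma adjusted p = 0.363). With cpdA, where none passed, the most abundant of the list, Adam17 and its regulator Rhbdf2, which is no active protease, had changes of 0.07 and -0.36 (limma adjusted p = 0.884 and 0.531). None of 12 cathepsins and cystatins, the lysosomal proteases and their inhibitors, passed in either fit. Of all 13895 genes, 1 passed for DHA and 1 for cpdA with 9 libraries, so 0 in a short list is near that share. Without cpdA 3 and LPS 3, an exclusion chosen with results known, 943 passed for DHA and 222 for cpdA. With 9 libraries Ctsd and Ctsb, the most abundant of the 12, changed by 0.29 and -0.01 with DHA and by 0.11 and -0.04 with cpdA (limma adjusted p = 0.605, 0.989, 0.878 and 0.951). Among 18 matrix and matricellular genes 0 passed with 9 libraries (limma, smallest adjusted p = 0.247 for DHA and 0.304 for cpdA). Tgfbi, a matrix protein, changed by 1.52 with DHA in that fit (SE 0.42, limma adjusted p = 0.247). Without cpdA 3 and LPS 3 it rose by 0.99 (SE 0.22, limma adjusted p = 0.0247). With cpdA the most abundant, Spp1 and Lgals3, had changes of -0.33 and 0.05 (limma adjusted p = 0.712 and 0.906). Of 15 AP-1 and ETS factors 0 passed with 9 libraries (limma, smallest adjusted p = 0.327 for DHA and 0.298 for cpdA). With all 9 libraries the DHA changes of Jun and Fos were 0.49 (SE 0.23) and 0.20 (SE 0.53), at limma adjusted p = 0.368 and 0.893. When cpdA 3 and LPS 3 were left out, Jun (0.64, SE 0.12) and Fos (0.81, SE 0.19) rose with DHA (limma adjusted p = 0.00994 and 0.0252). Fos had 132, 164 and 126 normalized counts in the DHA + LPS libraries, 107, 84.5 and 240 in the cpdA + LPS libraries and 86.9, 71.4 and 288.5 in the LPS libraries, so this rise depends on leaving LPS 3 out. Atf3 and Sfpi1, the most abundant, had changes of -0.13 and -0.12 with cpdA (limma adjusted p = 0.725 and 0.781).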

How the data were processed

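RNA-seq of 9 libraries was deposited as 1 table. Its signal values are read counts that the authors scaled by a factor of their own for each library, judging by the steps in the deposited values. The submitters' processing notes name CASAVA 1.8.2, Bowtie2, DESeq and mm9; counter, annotation and strand use were not given in the sources used here. The growth and extraction texts in the labels describe another kind of experiment and were not used.

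Between 99.99% and 100.0% of values were whole multiples of 1 read (tolerance 0.05), and whole reads were recovered. Values were analysed as log2(value + 1), which understates changes of low genes, in limma 3.58.1 (R 4.3.3; trend and robust options, Benjamini-Hochberg over 13895 kept genes, threshold 0.05), with all 9 libraries in 1 fit. Recovered reads were tested with edgeR 4.0.16 and DESeq2 1.42.0. The fits were tested on simulated counts. Members, lists and the exclusion of cpdA 3 and LPS 3 were chosen with earlier results of these data known. From each related list up to 5 genes past the test, or else the 2 most abundant, were eligible to be named, and for members the 5 nearest profiles. Same-number libraries of cpdA + LPS and LPS correlated at 0.387, 0.234 and 0.437 in their deviations, over 0.1 in every pair. That rule would take them as paired, so the replicate block is given as an alternative to the main fit, which has none. Deviations within a group of 3 sum to 0, however. Where replicate 3 stands apart in both groups, pairs among replicates 1 and 2 are pushed to positive values and their pairs with 3 to negative ones. The rule therefore cannot show pairing here. Different numbers also correlated, at 0.292 (cpdA 1 with LPS 2) and 0.264 (cpdA 2 with LPS 1). Pairs of replicate 3 with replicate 1 or 2 lay from -0.432 to -0.306. The correlation thus does not single out the replicate number, and the labels do not say what a number marks. Alternatives were pseudocounts of 0.5 and 8, other filters and scalings, fewer libraries and a replicate block. A result for 1 gene of a related list is not reported here.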

Additional observations from a re-analysis of the deposited data

How the results depend on the processing

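The count of genes called for DHA was 1 by limma over 9 libraries. It was 3 with a filter at 50, 3 with TMM scaling, 0 without trend and robust options, 3 by edgeR, 315 by DESeq2, 9 with only the libraries compared and 943 without cpdA 3 and LPS 3. For cpdA it was 1, against 0 without trend and robust options, 391 by DESeq2, 0 with only the libraries compared and 222 without cpdA 3 and LPS 3. With the replicate block it was 0 for DHA and 0 for cpdA. Same-number deviations correlated at 0.14, -0.0654 and 0.0199 between DHA + LPS and LPS, and at 0.407, -0.345 and 0.013 between cpdA + LPS and DHA + LPS, so the numbers pair no libraries there; the block changed no call of a member. Leaving out 1 library gave 0 to 373 genes for DHA, the most without cpdA 3, and 0 to 3 for cpdA. Members called for DHA numbered 0, against 1 by DESeq2, 3 without cpdA 3 and LPS 3, and 0 to 3 with 1 library left out; for cpdA 0, against 2 without cpdA 3 and LPS 3. Of 564 alternative values of the members' 27 changes, 559 moved by less than 1 SD between replicates and 5 by more. That SD includes cpdA 3 and LPS 3, and some alternatives, such as the replicate block, cannot move a change. 4 of the 5 were Mmp12 and Timp2 under quantile scaling, and the other was Mmp13 with cpdA without cpdA 3 and LPS 3. Mmp10 kept its sign in 20 of 20 alternatives in both comparisons with LPS, from -1.94 to -1.33 for DHA and from -1.91 to -1.19 for cpdA. Its pretreated libraries do not overlap with LPS, so leaving out 1 library could not turn the sign. Settings such as the block, or a left-out cpdA library for DHA, could not move the value at all. Mmp10 did not pass the filter at 50. The cause of these differences was not tested. Depth limits Mmp10 most, with 6 reads in DHA 1.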
